A study of Mus musculus with 9 samples.

Results

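The genes for 9 cell surface proteins used to recognise epithelial and progenitor cells were examined in an Rb-null and a wild-type line of mouse prostate epithelium: Cd200, Plet1, Cd24a, Psca, Cd44, Epcam, Prom1, Muc1 and Ly6a. Every probe set that the array's annotation assigns to one of these symbols was taken. That gave 11 of the 12422 probe sets, for 8 of the 9 genes. No probe set carries the symbol Ly6a in the annotation used, so Ly6a has no value here.

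The 9 arrays measured total RNA from cultured lines. The line that lacks Rb (Rb-/-PrE in the labels, Rb-null below) was kept without fetal bovine serum for 48 hours on 2 arrays and with 5% serum on 2 arrays. The wild-type line (wtPrE) was kept without serum for 48 hours on 2 arrays and with 5% serum on 3 arrays, and all groups shared the same base medium. Each genotype is represented by 1 line, so a difference between genotypes is a difference between these lines. Nothing in the labels states that the arrays of a group were separate cultures, so p-values measure only the spread between arrays. Their number sets the precision of every value.

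Surface proteins of this kind serve to sort cells by function. Cd44, Prom1, Epcam, Ly6a and Cd24a have been used, alone or in combination, to enrich stem or progenitor cells from epithelia such as the prostate, and Psca marks a subset of prostate epithelium. Many of these proteins also act in adhesion or signalling, through ligands on other cells or in the extracellular matrix. The retinoblastoma protein, the product of Rb1, restrains the E2F transcription factors before a cell enters S phase.

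The promoters of the 4 genes whose level differed between the lines, averaged over the media, are shown for reference. Each is given as the 250 bases before the annotated RefSeq start in GRCm38.p6, read 5′ to 3′ on the gene's strand. Capitals mark 4 motifs, each searched on both strands. They are the TATA box with the letters TATAAA, the CCAAT box of those letters, the GC box with the letters GGGCGG and the AP-1 site with the letters TGANTCA. The Cd200 window lies at chr16:45409054-45409303 on the minus strand, Plet1 at chr9:50494275-50494524 on the plus strand, Prom1 at chr5:44101737-44101986 on the minus strand and Muc1 at chr3:89228806-89229055 on the plus strand.
Cd200: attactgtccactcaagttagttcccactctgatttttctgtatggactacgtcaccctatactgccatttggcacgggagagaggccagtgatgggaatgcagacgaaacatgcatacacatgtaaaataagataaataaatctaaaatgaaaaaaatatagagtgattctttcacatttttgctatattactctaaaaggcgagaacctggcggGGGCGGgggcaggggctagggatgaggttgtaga
Plet1: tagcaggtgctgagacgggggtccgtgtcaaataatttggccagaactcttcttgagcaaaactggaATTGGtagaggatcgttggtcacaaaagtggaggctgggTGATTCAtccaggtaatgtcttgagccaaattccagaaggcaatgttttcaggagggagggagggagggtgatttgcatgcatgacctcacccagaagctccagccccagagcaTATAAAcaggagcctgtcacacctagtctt
Prom1: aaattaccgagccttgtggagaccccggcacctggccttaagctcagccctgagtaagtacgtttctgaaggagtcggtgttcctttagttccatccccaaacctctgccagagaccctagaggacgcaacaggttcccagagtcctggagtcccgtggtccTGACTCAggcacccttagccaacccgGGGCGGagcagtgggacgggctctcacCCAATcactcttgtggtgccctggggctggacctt
Muc1: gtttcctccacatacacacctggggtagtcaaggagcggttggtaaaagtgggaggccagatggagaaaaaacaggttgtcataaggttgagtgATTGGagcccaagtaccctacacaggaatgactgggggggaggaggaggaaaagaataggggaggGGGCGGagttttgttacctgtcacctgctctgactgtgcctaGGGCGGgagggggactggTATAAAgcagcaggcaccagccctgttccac

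The Cd200 window holds a single marked motif, a GC box at 34, counting back from the start to the first printed base of the match. The Plet1 window holds a TATA box at 30, an AP-1 match at 144 and a CCAAT box on the minus strand at 183. The Prom1 window holds a CCAAT box at 35, a GC box at 62 and an AP-1 match at 88, and the window before its other annotated start (chr5:44094769-44095018, minus strand) holds an AP-1 match at 189. The Muc1 window holds a TATA box at 31, 2 GC boxes of which the nearer lies at 49, and a CCAAT box on the minus strand at 156. Among all 32851 windows of this length, 12.4% hold the TATA box, 33.9% the CCAAT box, 32.7% the GC box and 6.75% the AP-1 letters. None of these 4 genes, nor Cd44 or Epcam, had a match in its window to the E-box letters CACGTG (6.02% of all windows) or to the E2F letters TTTCGCGC, TTTGGCGC, TTTCCCGC or TTTGCCGC (1.86%). The Epcam window holds a GC box at 58 and the Cd44 window none of the searched motifs. Cd24a and Psca have no entry in the table.

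Levels below are quantile-normalized intensities on a linear scale, which can be compared between arrays for 1 probe set but not between probe sets. The arrays had deposited medians between 445 and 474. No detection calls came with the files, so a floor of 197, at percentile 25 of all measurements, was set for testing and lower values were raised to it. Differences are log2 differences of the floored values with their standard error (SE), tested across the 9686 probe sets above the floor on at least 2 arrays, and an adjusted p under 0.05 counts as past the threshold. The array wild-type serum 1 stood apart, with rank correlations of 0.986 and 0.983 to the other wild-type serum arrays, against 0.997 between those. The targeted gene followed the labels: the Rb1 probe set 97948_at gave 171, 167, 114 and 109.5 on the Rb-null arrays, against 386, 370.4, 714, 398 and 368 on the wild-type arrays, at least 2.15-fold lower in Rb-null cells (log2 -1.10, adjusted p = 0.000923). With the floor at percentile 40 that difference was -0.34 (adjusted p = 0.126). Another Rb1 probe set lay below the floor on all arrays, and the sources used here do not give the deleted part of the gene.

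Epithelial markers were above the floor in both lines, but so were several markers of other cell types. A value above the floor therefore does not by itself identify a cell type. Of 11 epithelial markers, all were above the floor on at least 2 arrays, with Krt8 at group means of 8373 and 10347 in Rb-null cells without and with serum and 9271 and 8869 in wild-type cells. The basal marker Krt5 averaged 616 and 633 in Rb-null cells and 695 and 683 in wild-type cells. Of 9 leukocyte markers on the array, 6 were above the floor on some array of Rb-null cells without serum and 7 in each other group. Ptprc and Lyz2 lay below it throughout (highest 120 and 92.8), while, by the brighter probe set where a gene had several, Cd3e averaged 802, 777, 929 and 889 and Cd68 averaged 587, 560, 620 and 605 in Rb-null cells without and with serum and wild-type cells without and with serum. Of 11 fibroblast and mesenchymal markers, 8 were above the floor in wild-type cells with serum and 7 in each other group. Vim lay below it on every array (highest 143), while the brightest probe sets of Col1a1 and Pdgfra had group means of 944 to 1087 and 569 to 657. A second probe set of Col1a1 and of Cd68 lay below the floor on every array.

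Averaged over the media, 5 of the 9 tested probe sets (55.6%) passed the threshold between the lines, against 45.2% of all probe sets tested. Cd200 and Plet1 were higher in Rb-null cells, and Prom1, by both of its probe sets, and Muc1 were lower. The 2 higher calls compare with 21.8% of all probe sets called higher and the 3 lower calls with 23.4% called lower. Of all calls 48.1% were higher in Rb-null cells, a share that was 69.3% without between-array normalization and 60.7% after scaling to equal medians. The members' share called was near the background. With the floor used, the differences of Cd200 and Plet1 ranked the fourth and the fifth highest of all 9686 probe sets, and since wild-type arrays of both genes lay below the floor, these ranks depend on it. The median difference over the 9 probe sets was 0.05, against -0.05 over all probe sets, and the median size was 0.40 against 0.18. The members were chosen with earlier results of these data known, and Prom1 enters by 2 probe sets. These ranks and medians are therefore a description only. For 2 of the 9 probe sets, Cd200 and Plet1, all arrays of 1 line lay above all arrays of the other, against 23.5% of all probe sets.

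**Figure D1:**
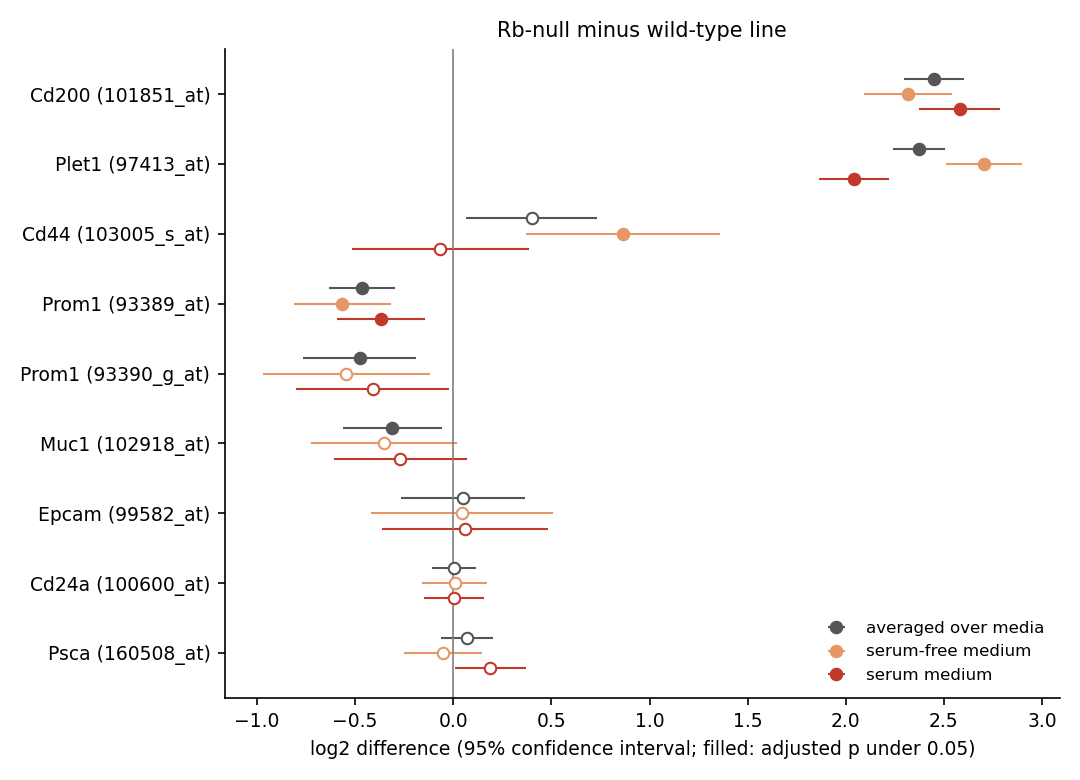
Log2 differences, Rb-null minus wild-type line, of the 9 tested probe sets (rows), averaged over the media, without serum and with serum; bars are 95% confidence intervals and filled points passed an adjusted p of 0.05. Cd200 and Plet1 lie above 2 in every comparison, Prom1 and Muc1 lie below 0, and Cd24a, Epcam and Psca lie near 0.

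Cd200 is a membrane glycoprotein of the immunoglobulin superfamily that acts as a ligand for an inhibitory receptor on myeloid cells and is found on stem cells of the hair follicle. Its probe set, 101851_at, read 1079.6 and 889 in Rb-null cells without serum and 1205 and 1148 in Rb-null cells with serum. On the wild-type arrays it read 32.5 and 30.2 without serum and 26.6, 31.0 and 48.7 with serum. All 4 Rb-null arrays lay far above the floor and all 5 wild-type arrays below it, so a wild-type level cannot be given beyond that bound. Averaged over the media, Cd200 was at least 5.46-fold above wild-type in the Rb-null line (log2 2.45, SE 0.068, adjusted p = 3.04e-08). It was at least 4.98-fold higher without serum (adjusted p = 1.01e-06) and at least 5.98-fold higher with serum (adjusted p = 2.87e-07). The size of the bound depends on the floor: the averaged log2 difference was 3.52 with the floor at percentile 10 and 1.69 at percentile 40. In a bulk sample, fewer cells that express a gene and less RNA per cell cannot be told apart, and this applies to every gene below.

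Serum withdrawal moved Cd200 little in the line that expressed it. The Rb-null arrays without serum lay below those with serum with no overlap, but the difference of -0.26 did not pass the threshold (SE 0.10, adjusted p = 0.132). It did so without Rb-null serum-free 1, at -0.40 (adjusted p = 0.0337). In wild-type cells both groups lay at the floor, so no withdrawal difference could be measured.

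Plet1 encodes a glycosylphosphatidylinositol-anchored surface protein first described in placenta and found on epithelial progenitors of thymus and skin. Its probe set, 97413_at, read 1668 and 1727 in Rb-null cells without serum and 834 and 787 in Rb-null cells with serum. In wild-type cells it read 248 and 274 without serum and 169, 158 and 137 with serum. The 4 groups formed an order without overlap between neighbours, with Rb-null cells above wild-type cells and, within each line, serum-free above serum. The wild-type serum arrays all lay below the floor. Because of these arrays the difference averaged over the media is a bound too, with the Rb-null level at least 5.18-fold above the wild-type one (log2 2.37, SE 0.058, adjusted p = 1.47e-08). Without serum it was 6.51-fold higher (log2 2.70, SE 0.086, adjusted p = 2.21e-07), the third highest of all probe sets in that comparison. With serum it was at least 4.12-fold higher (log2 2.04, adjusted p = 4.95e-07).

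**Figure D2:**
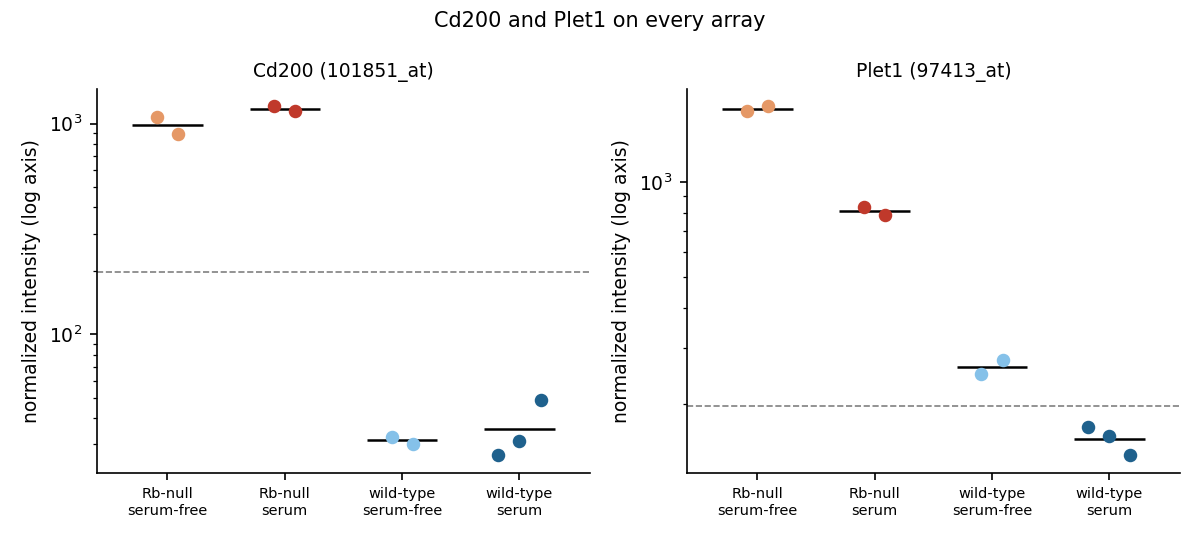
Normalized intensity (log axis) of Cd200 and Plet1 on every array in the 4 groups; points are arrays, short lines are group means and the dashed line is the floor of 197. For Cd200 the 4 Rb-null arrays lie between 889 and 1205 and the 5 wild-type arrays below 50, and for Plet1 the groups follow each other without overlap.

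Plet1 was the member with the clearest response to serum withdrawal. In Rb-null cells it was 2.09-fold higher without serum than with serum (log2 1.07, SE 0.086, adjusted p = 6.26e-05), and in wild-type cells it was at least 1.33-fold higher without serum (log2 0.41, SE 0.079, adjusted p = 0.00752). The wild-type call ended without wild-type serum-free 2 (0.34, adjusted p = 0.0980) and with the floor at percentile 40, where both wild-type groups lie at the floor. Of the 9 probe sets, 2 (22.2%) passed the threshold for withdrawal in Rb-null cells, Plet1 higher and Prom1 lower, against 13.9% of all probe sets. In wild-type cells 2 of 9 passed, Plet1 higher and Cd44 lower, against 15.9%.

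The withdrawal response of Plet1 differed between the lines by 0.66 on the log2 scale, larger in Rb-null cells (SE 0.12, 95% confidence interval 0.40 to 0.92, adjusted p = 0.0395). It was the only one of the 9 probe sets (11.1%) past the threshold in that test, against 0.929% of all probe sets. Because wild-type cells in serum lay below the floor, their response is a lower bound. With the floor at percentile 10, below which no Plet1 value fell, the wild-type response was 0.76 (adjusted p = 0.000981) and the difference between the lines 0.31 (adjusted p = 0.551). Leaving out any array other than wild-type serum 1 also ended the call, at differences of 0.60 to 0.74 and adjusted p up to 0.242, and without wild-type serum 1 the adjusted p was 0.0148.

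Cd24a encodes a small, heavily glycosylated anchored protein that binds P-selectin and Siglec receptors. Its probe set, 100600_at, read 6387 and 6085 in Rb-null cells without serum and 6085 and 6225 with serum, against 6242 and 6164 in wild-type cells without serum and 6715, 5733 and 6028 with serum. The groups overlapped throughout. The averaged difference between the lines was 0.0048 (SE 0.050, adjusted p = 0.943), with a 95% confidence interval of -0.11 to 0.12. Differences within a medium and after withdrawal were between 0.0023 and 0.018 and did not pass the threshold.

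Psca encodes prostate stem cell antigen, an anchored protein of the Ly6 family. Its probe set, 160508_at, read 1086 on both Rb-null arrays without serum and 1294 and 1211 on those with serum, against 1069 and 1183 on the wild-type arrays without serum and 1084, 1066 and 1146 on those with serum. The Rb-null serum arrays were the highest of the 9 and overlapped neither Rb-null serum-free nor wild-type serum. Neither difference passed the threshold: withdrawal in Rb-null cells gave -0.21 (SE 0.088, adjusted p = 0.185) and the lines in serum differed by 0.19 (SE 0.080, adjusted p = 0.124). Without between-array normalization the difference in serum was 0.31 (adjusted p = 0.0225) and the averaged difference 0.22 (adjusted p = 0.0173), against 0.07 after normalization (adjusted p = 0.362).

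Cd44 encodes the main cell surface receptor for hyaluronan. Of its 3 probe sets, 103003_i_at (11.8 to 19.9) and 103004_r_at (65.7 to 77.9) lay below the floor on all arrays and were not tested. The remaining one, 103005_s_at, read 1270.4 and 1963 in Rb-null cells without serum and 1699 and 1268 with serum. In wild-type cells it read 915 and 821 without serum and 1290.1, 1655 and 1701 with serum. The wild-type serum-free arrays were the lowest, below all 7 others, whose groups overlapped each other.

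Without serum Cd44 was higher in Rb-null cells by 1.82-fold (log2 0.87, SE 0.22, adjusted p = 0.0176), and the difference between the lines with serum was -0.07 (SE 0.20, adjusted p = 0.849). In wild-type cells Cd44 was 1.77-fold lower without serum than with serum (log2 -0.83, SE 0.20, adjusted p = 0.0220), and in Rb-null cells the withdrawal difference was 0.11 (SE 0.22, adjusted p = 0.882). The difference between those responses, 0.93 with a 95% confidence interval of 0.26 to 1.60, did not pass the threshold (adjusted p = 0.247), so the responses are not shown to differ. The serum-free call was lost without Rb-null serum-free 2 (0.55, adjusted p = 0.104), without wild-type serum-free 1 (adjusted p = 0.0726) or without the other wild-type serum-free array (adjusted p = 0.102). The withdrawal call in wild-type cells ended at -0.78 without wild-type serum 2 (adjusted p = 0.0622) and at -0.75 without wild-type serum-free 2 (adjusted p = 0.170). It also ended without wild-type serum-free 1, where the difference was -0.91. Averaged over the media the difference between the lines was 0.40 (adjusted p = 0.0527), and it passed without Rb-null serum-free 1 (0.55, adjusted p = 0.0162) or Rb-null serum 2 (adjusted p = 0.0443).

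Epcam encodes the epithelial cell adhesion molecule, which joins neighbouring epithelial cells and associates with claudin-7 and tetraspanins. Its probe set, 99582_at, read 1852 and 1391 in Rb-null cells without serum and 1375 and 1421 with serum, against 1559 and 1558 in wild-type cells without serum and 1772, 1247 and 1095 with serum. The groups overlapped in every comparison between the lines. The averaged difference was 0.05 (SE 0.14, adjusted p = 0.784), with a 95% confidence interval of -0.26 to 0.36. Withdrawal gave 0.20 in Rb-null cells (adjusted p = 0.675) and 0.22 in wild-type cells (adjusted p = 0.493), and without wild-type serum 1 the wild-type value was 0.41 (adjusted p = 0.0410).

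Prom1 encodes prominin-1 (CD133), a cholesterol-binding protein of plasma membrane protrusions that serves as a stem cell marker in several tissues. Averaged over the media it was lower in Rb-null cells by both probe sets. The probe set 93389_at read 1511 and 1373 in Rb-null cells without serum and 2019 and 2110.1 with serum, against 1997 and 2273 in wild-type cells without serum and 2998, 2489.8 and 2531 with serum. Within each medium the lines did not overlap, but Rb-null serum and wild-type serum-free arrays covered the same range. The probe set 93390_g_at was likewise lowest in Rb-null cells without serum and highest in wild-type cells with serum, with the other groups level: 815 and 653 in Rb-null cells without serum and 1069 and 1059 with serum, against 1068 and 1059.9 in wild-type cells without serum and 1840.1, 1299 and 1184 with serum.

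The averaged difference between the lines was -0.47 for 93389_at (SE 0.074, adjusted p = 0.00107), a level 1.38-fold lower in Rb-null cells, and -0.48 for 93390_g_at (SE 0.13, adjusted p = 0.0145). For 93389_at the lines also differed without serum (-0.57, SE 0.11, adjusted p = 0.00558) and with serum (-0.37, SE 0.10, adjusted p = 0.0271). Prom1 was the only lower call among the members in each medium: 4 of 9 probe sets (44.4%) were called without serum, against 30.7% of all, and 3 of 9 (33.3%) with serum, against 23.6%. For 93390_g_at the differences in each medium were -0.54 (adjusted p = 0.0547) and -0.41 (adjusted p = 0.121). The calls of 93389_at within a medium ended without between-array normalization, at -0.32 without serum (adjusted p = 0.102) and -0.20 with serum (adjusted p = 0.291). They also ended without wild-type serum-free 2 in the comparison without serum (adjusted p = 0.0524), and without Rb-null serum 1 (adjusted p = 0.172) or Rb-null serum 2 (adjusted p = 0.118) in the comparison with serum.

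The averaged call of 93390_g_at ended without normalization (-0.34, adjusted p = 0.0888), without Rb-null serum-free 2 (adjusted p = 0.0594) and without wild-type serum-free 1 (adjusted p = 0.0527). After serum withdrawal 93389_at was lower by -0.52 in Rb-null cells (SE 0.11, adjusted p = 0.0128). In wild-type cells the difference of -0.32 did not pass (SE 0.10, adjusted p = 0.0601). For 93390_g_at the values were -0.54 (adjusted p = 0.0985) and -0.41 (adjusted p = 0.155). The call in Rb-null cells ended without Rb-null serum 1 (adjusted p = 0.0672), Rb-null serum 2 (adjusted p = 0.109) or Rb-null serum-free 2 (adjusted p = 0.0920). The difference between the responses of the lines was -0.20 for 93389_at (adjusted p = 0.649).

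Prominin-1 is also used as a marker of endothelial progenitors. Of 7 tested endothelial markers, 3 were lower and none higher in Rb-null cells, against 23.4% of all probe sets called lower, with a list median of -0.17 against -0.05 over all. The 3 were Pecam1 (-0.46, adjusted p = 0.00261), Cd34 (-0.30, adjusted p = 0.00936) and Flt1 (-0.32, adjusted p = 0.0113). A second Cd34 probe set lay below the floor on every array (highest 124). Intensities were also summed over all probe sets of the 9 markers on the array, including those below the floor, so bright probe sets weigh most. The sum was 4139 to 4219.7 in Rb-null cells without serum and 4242 to 4314 with serum. In wild-type cells it was 4882 to 4921 without serum and 4241 to 5035 with serum. In every group 7 of the 9 markers were above the floor, with group means of 638 to 744 for Kdr, 649 to 829 for the brighter probe set of Flt1 and 594 to 744 for Eng. Tek and Tie1 lay below it on every array, and Cdh5 did not exceed 221. The part of such cells in the Prom1 difference was not tested.

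Muc1 encodes a transmembrane mucin of the apical surface of glandular epithelium. Its probe set, 102918_at, read 1063 and 1152 in Rb-null cells without serum and 1052 and 1100.8 with serum, against 1501 and 1332 in wild-type cells without serum and 1021, 1469 and 1456 with serum. The 4 Rb-null arrays lay below 4 of the 5 wild-type arrays, and the exception, wild-type serum 1, was the lowest of all 9. The averaged difference was -0.31 (SE 0.11, adjusted p = 0.0468), while the differences without serum, -0.35 (adjusted p = 0.126), and with serum, -0.27 (adjusted p = 0.236), did not pass. Without wild-type serum 1 the averaged difference was -0.40 (adjusted p = 0.000246), that without serum -0.35 (adjusted p = 0.00525) and that with serum -0.44 (adjusted p = 0.00186). Leaving out any of the 8 other arrays ended the averaged call, with adjusted p up to 0.154, as did leaving the arrays without normalization (-0.14, adjusted p = 0.273). Withdrawal differences of Muc1 were 0.04 in Rb-null cells and 0.12 in wild-type cells and did not pass the threshold.

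**Figure D3:**
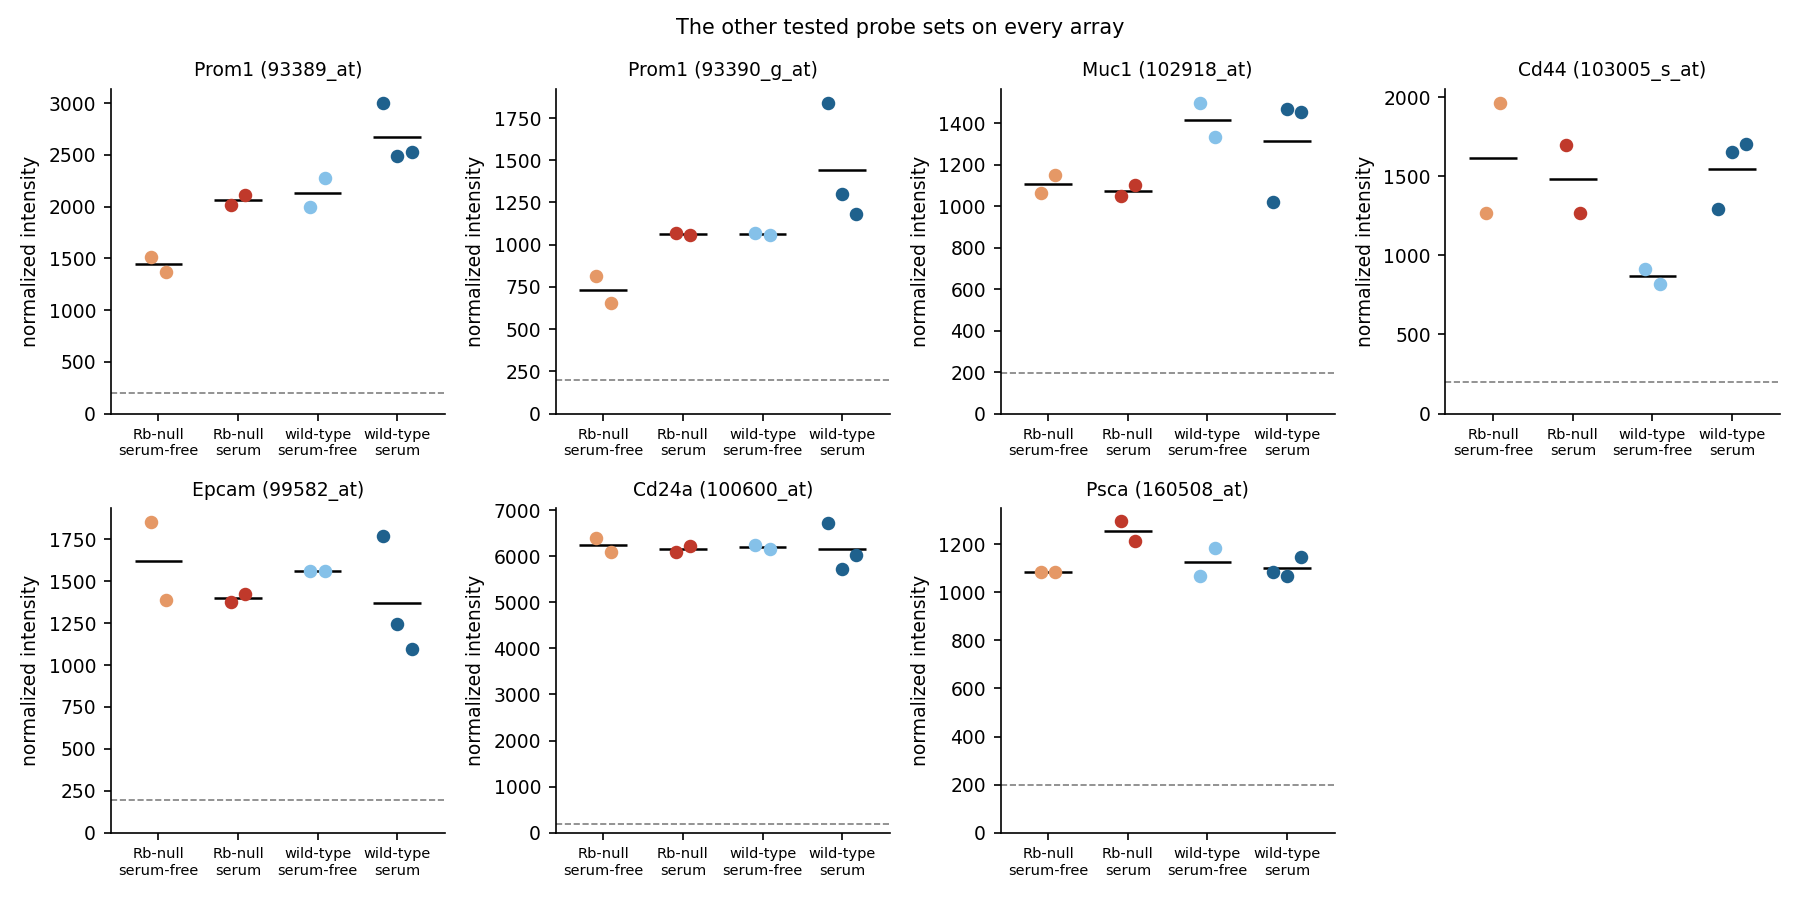
Normalized intensity on a linear axis from 0 of the 7 other tested probe sets on every array in the 4 groups; points are arrays, short lines are group means and the dashed line is the floor of 197. Prom1 is lowest in Rb-null cells without serum by both probe sets, and Cd44 is lowest in wild-type cells without serum. For Muc1, 1 wild-type serum array lies at 1021, below all Rb-null values, and the groups of Cd24a and Epcam overlap.

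**Figure D4:**
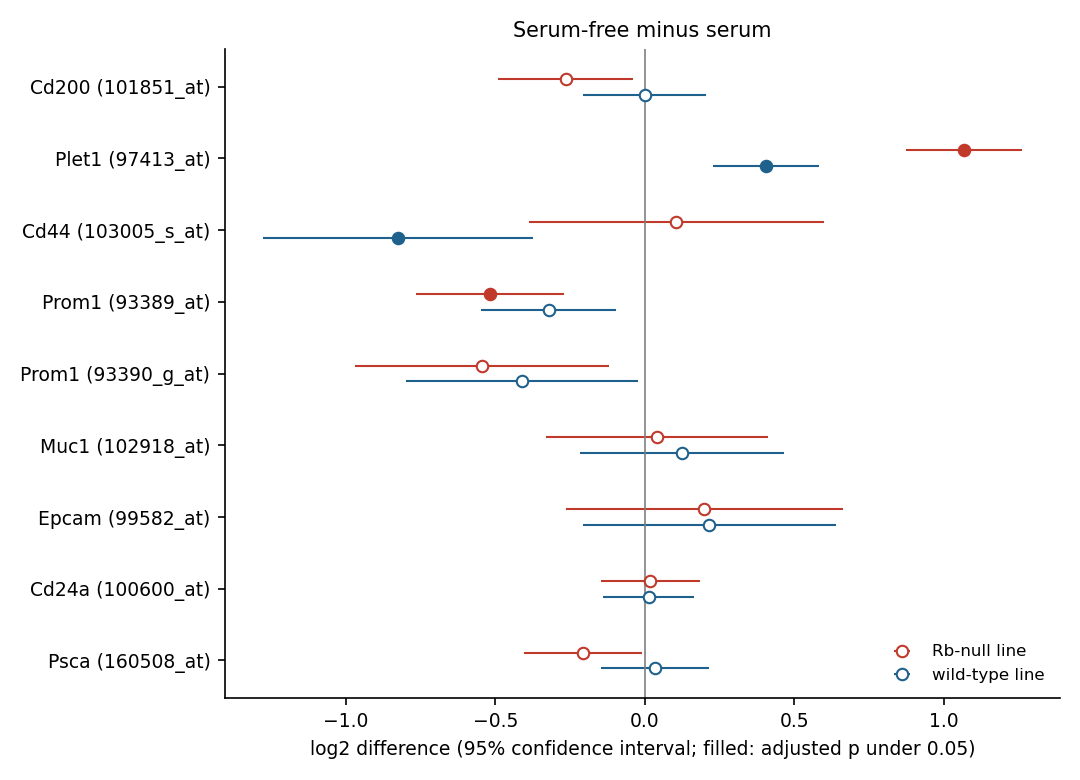
Log2 differences, serum-free minus serum, of the 9 tested probe sets (rows) in the lines without and with Rb; bars are 95% confidence intervals and filled points passed an adjusted p of 0.05. Plet1 lies above 0 in both lines, at 1.07 and 0.41, Prom1 93389_at passes at -0.52 in the Rb-null line, and Cd44 passes at -0.83 in the wild-type line.

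Across the 9 arrays the members followed a few shapes, described by Pearson correlations of floored log2 levels over points that share line and medium. Cd200 and Plet1 correlated at 0.927 and the pair of Prom1 probe sets at 0.957, while Plet1 and Prom1 93389_at ran opposite at -0.885. All wild-type values of Cd200, and those of Plet1 with serum, were set to the floor here. Correlations with Cd200 therefore largely restate the difference between the lines. The genes most like Cd200 were Lgals1, a galectin (0.997), Sprr1a, a precursor of the cornified envelope (0.996), and Ctse, an aspartic protease (0.996). Those most like Plet1 were Scpep1, a carboxypeptidase (0.998), 2610524H06Rik (0.996) and Pkp1, a desmosomal plakophilin (0.994). Ctse, 2610524H06Rik and Pkp1 were read by probe sets that can detect related transcripts. Prom1 93389_at was closest to Kdelr3 (0.982) and Pdia6 (0.980), both of the endoplasmic reticulum, and to Tmem185a (0.981). Prom1 93390_g_at was closest to another probe set of Pdia6 (0.972), to F3, tissue factor (0.964), and to Rae1 (0.961). Muc1 was closest to Cop1, a ubiquitin ligase (0.987), Syngr4 (0.985) and Pim1, a kinase (0.984).

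Of 33 ligands, receptors and partners of the members, 23 were tested, and averaged over the media 5 were higher and 7 lower in Rb-null cells. Over all probe sets 21.8% were higher and 23.4% lower, and the list median was -0.06 against -0.05 over all probe sets. Has2, a hyaluronan synthase that makes the ligand of Cd44, averaged 492 ± 78.4 in Rb-null cells without serum and 1207 ± 54.7 with serum (SD, n = 2 each), against 201 ± 1.45 in wild-type cells without serum (n = 2) and 354 ± 48.5 with serum (n = 3). The level in Rb-null cells was 2.89-fold higher (log2 1.53, SE 0.096, adjusted p = 4.22e-06). Mmp14, a membrane protease that cleaves CD44, averaged 1548 ± 72.3 and 1511 ± 55.7 in Rb-null cells without and with serum, against 4022 ± 248 and 3431 ± 186 in wild-type cells, 2.43-fold lower in Rb-null cells (log2 -1.28, adjusted p = 3.04e-07).

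Tspan8, a tetraspanin that associates with Epcam, averaged 531 ± 26.4 and 521 ± 18.2 in Rb-null cells without and with serum, against 1418 ± 26.6 and 1692 ± 469 in wild-type cells, a level 2.91-fold lower in Rb-null cells (log2 of -1.54, SE 0.13, adjusted p = 2.86e-05). Ctnnb1, beta-catenin, which binds the tails of MUC1 and of cadherins, was higher in Rb-null cells by 1.68-fold (log2 0.75, SE 0.058, adjusted p = 1.64e-05). Adam10, a membrane protease that releases the outer part of CD44, was at 1.30 (SE 0.14, adjusted p = 0.000102) and is named after its value was seen.

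Other surface markers used to sort progenitor cells had 1 gene higher and 3 lower of 14 tested. Over all probe sets 21.8% were higher and 23.4% lower, and the list median was -0.02 against -0.05. Mcam (CD146), an adhesion molecule of the immunoglobulin superfamily, was the strongest of them: it averaged 318 ± 10.9 and 331 ± 0.553 in Rb-null cells without and with serum, against 1090.4 ± 9.06 and 1211 ± 25.3 in wild-type cells. Mcam in Rb-null cells was 3.54-fold lower (log2 -1.82, SE 0.056, adjusted p = 5.95e-08), opposite in direction to Cd200. Procr, the endothelial protein C receptor, was lower by a smaller amount (-0.39, adjusted p = 0.00109). The integrins Itgb4 (0.14, adjusted p = 0.0437) and Itga2 (-0.26, adjusted p = 0.0467) lay close to the threshold. Their calls ended when single arrays were left out, at adjusted p up to 0.168 for Itgb4 and 0.172 for Itga2.

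The relatives of Psca and Ly6a in the Ly6/uPAR family had 1 member higher and 4 lower of 8 tested, against 21.8% higher and 23.4% lower of all probe sets, with a list median of -0.22 against -0.05 over all. Ly6e was higher (0.32, adjusted p = 0.000417, by a probe set that can detect related transcripts), and Ly6h (-0.32, adjusted p = 0.00760), Cd59a, an inhibitor of complement (-0.32, adjusted p = 0.00783), and Ly6d (-0.23, adjusted p = 0.0102) were lower. Of the mucins and sialomucins other than Muc1, 1 was higher and 2 were lower of 8 tested, against the same 21.8% and 23.4%. The list median was -0.07 against the same -0.05. Cd164 was higher (0.28, adjusted p = 0.00178), and Podxl (-0.41, adjusted p = 0.00335) and Selplg (-0.39, adjusted p = 0.0167) were lower. The calls of Ly6h, Ly6d and Selplg ended when the arrays were not normalized against each other, and that of Selplg also without Rb-null serum 2 (adjusted p = 0.0613), Rb-null serum-free 1 (adjusted p = 0.0651) or wild-type serum-free 1 (adjusted p = 0.0696).

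**Figure D5:**
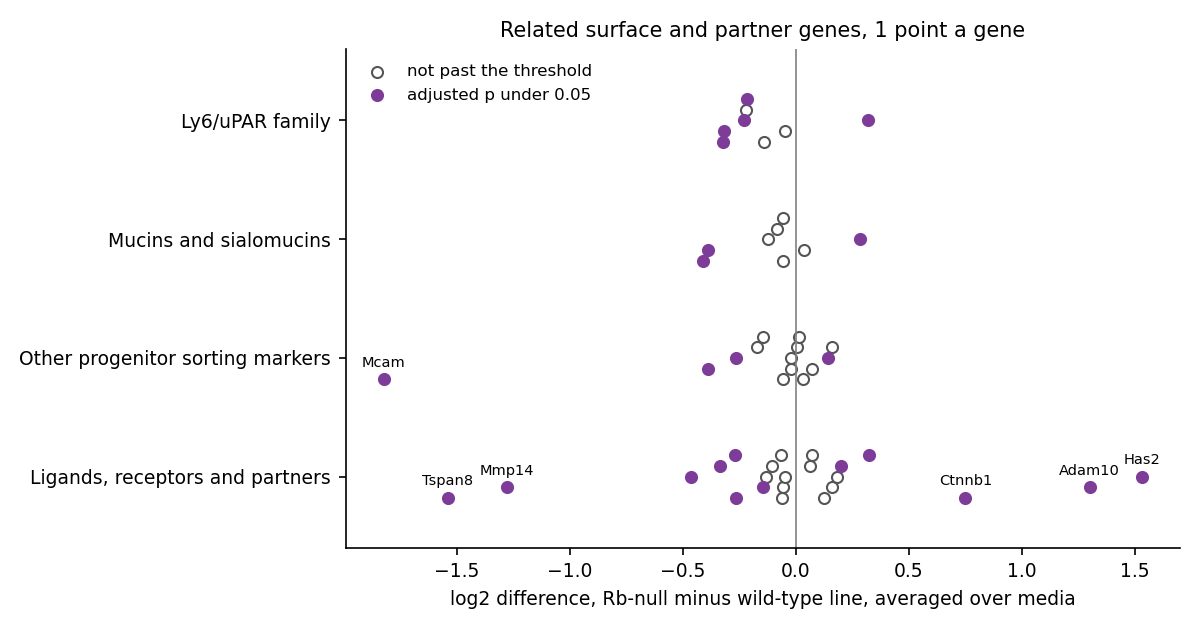
Log2 difference between the lines, Rb-null minus wild-type averaged over the media, of each tested gene in 4 related lists (rows, 1 point a gene); filled points passed an adjusted p of 0.05. Most genes lie within 0.5 of 0, while Mcam, Tspan8 and Mmp14 lie below -1 and Has2 and Adam10 above 1.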

How the data were processed

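The authors deposited a linear intensity for each probe set on each of 9 arrays; the sources used here give no scanner, software or summary method. Upper quartiles differed between arrays by 0.22 on the log2 scale, above the tolerance of 0.1, so the values were quantile normalized, raised to the floor of 197 and taken to log2. Gene symbols came from the platform annotation, updated by gene identifier: 10833 probe sets had 1 gene, 396 several and 1193 none.

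A single limma 3.58.1 fit in R 4.3.3 estimated the 4 group means and let the variance follow intensity (5 residual and 4.20 prior degrees of freedom). The 6 contrasts were tested two-sided with Benjamini-Hochberg adjustment over 9686 probe sets of 7063 genes: the lines averaged over both media with equal weight, the lines within each medium, serum-free against serum within each line, and the difference of those responses. A fold is a lower bound where the lower group lay wholly below the floor. The fit was tested on simulated data. The members, the related lists and the tests were chosen with earlier results of these data known. All member probe sets are named; beyond them the text names the 3 probe sets most correlated with each member called between the lines, and up to 4 genes of each related list with the smallest adjusted p. Each listed gene is represented by its tested probe set with the highest mean. Alternatives changed the scaling, the floor, the filter, the variance trend, the replicate block and each array in turn. Motifs were searched in RefSeq promoter windows of GRCm38.p6, and 6 of the 8 genes had an entry.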

Additional observations from a re-analysis of the deposited data

Results flagged for a closer look

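The response of Plet1 to serum withdrawal was larger in Rb-null than in wild-type cells by 0.66 on the log2 scale (SE 0.12, adjusted p = 0.0395 by limma), at 1.07 in Rb-null cells and 0.41 in wild-type cells. In both lines every serum-free array lay above every serum array. The wild-type serum arrays lay below the floor, and with a floor beneath all Plet1 values the difference was 0.31 (adjusted p = 0.551).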

How the results depend on the processing

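The calls of Cd200 between the lines, of Plet1 between the lines and after withdrawal in Rb-null cells, and of Prom1 93389_at averaged over the media kept their direction and passed the threshold under all 16 alternatives run. Over the members, 739 of 864 values kept their direction and side of the threshold, 49 lost a call, 20 gained one and 56 changed sign. The sign changes were of values that did not pass the threshold. Over the related genes and Rb1, for which alternatives were added after seeing the data, 51 of 366 values lost the call and 0 changed sign.

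The members' count between the lines averaged over the media was 3 in place of 5 with no filter on low values. For withdrawal in wild-type cells it was 1 in place of 2 with the floor at percentile 40 and with no filter. For the difference in response it was 0 in place of 1 with the floor at percentile 10, with no filter and with the replicate block, and all probe sets called numbered 57 with the floor at percentile 10, 57 with no variance trend and 51 with the block, against 90. Adding the replicate number as a block otherwise left the members' counts within 1.5 times. Deviations of same-numbered arrays correlated at 0.331 and 0.295 between Rb-null serum-free and wild-type serum and at -0.231 to 0.067 between the other groups, so the numbers were not taken to pair the arrays.

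Leaving out single arrays gave 3068 to 6074 calls averaged over the media, 877 to 4376 in serum, 1159 to 4981 without serum, 497 to 2280 for withdrawal in Rb-null cells, 667 to 1963 in wild-type cells and 12 to 255 for the difference in response. The members' counts were 3 to 5, 2 to 4, 2 to 6, 1 to 3, 0 to 3 and 0 to 1 in the same comparisons.

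Values that changed sign were as follows. Cd24a was -0.0021 averaged and -0.012 in serum with the block; for withdrawal it was -0.12 in Rb-null and -0.050 in wild-type cells with arrays as deposited, -0.085 and -0.0021 with median scaling and -0.00041 in wild-type cells with the block; the difference in response was -0.072 as deposited and -0.083 with median scaling. Epcam was -0.023 averaged and -0.089 in serum with the block, and the difference in response was 0.090 as deposited, 0.079 with median scaling and 0.13 with the block. Cd44 in serum was 0.087, 0.061 and 0.0066 under these settings. Psca without serum was 0.13 as deposited and 0.096 with median scaling, and its wild-type withdrawal difference -0.047 as deposited. The cause was not tested. With single arrays left out, Cd24a ranged over -0.019 to 0.036 averaged, -0.048 to 0.067 in serum, -0.028 to 0.044 without serum, -0.017 to 0.055 for Rb-null withdrawal, -0.038 to 0.079 for wild-type withdrawal and -0.062 to 0.057 for the difference in response. Epcam ranged over -0.054 to 0.15 averaged, -0.089 to 0.26 in serum, -0.17 to 0.25 without serum, -0.0080 to 0.41 for Rb-null withdrawal and -0.22 to 0.19 for the difference in response. Cd44 ranged over -0.28 to 0.14 in serum and -0.21 to 0.42 for Rb-null withdrawal. Psca ranged over -0.13 to 0.023 without serum and -0.040 to 0.11 for wild-type withdrawal. Muc1 ranged over -0.017 to 0.10 for Rb-null withdrawal, -0.049 to 0.22 for wild-type withdrawal and -0.17 to 0.089 for the difference in response. Prom1 93390_g_at ranged over -0.32 to 0.027 for the difference in response.

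Scaling moved the share of calls that were higher in Rb-null cells from 55.9% to 73.4% as deposited and 68.0% with median scaling in serum, and from 54.8% to 77.6% and 68.1% without serum. For withdrawal in wild-type cells 41.7% of calls were higher without serum, against 25.7% and 36.2%. No detection calls came with the arrays, so levels of Cd200 in wild-type cells, Plet1 in wild-type cells with serum, and 2 Cd44 probe sets are known only as below the floor.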

Other observations

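Of the 23 tested ligands, receptors and partners, 1 was higher and 3 lower without serum in Rb-null cells and 1 higher and 4 lower in wild-type cells, against 13.9% and 15.9% of all probe sets called in either direction. The genes named here, other than Has2, Itgb4, Ly6e and Cd164, were picked after their values were seen. Has2 was lower without serum by -1.30 in Rb-null cells (adjusted p = 0.000393 by limma) and -0.81 in wild-type cells (adjusted p = 0.00274). Rdx, radixin, which links membrane proteins such as CD44 to actin, was lower by -0.54 (adjusted p = 0.00418) and -0.59 (adjusted p = 0.00146). Lgals3, a galectin that binds MUC1, was higher by 0.40 (adjusted p = 0.0177) and 0.30 (adjusted p = 0.0364). Ezr passed in Rb-null cells at -0.44 (-0.04 in wild-type cells), and Vcan and Msn passed in wild-type cells at -0.42 and -0.21 (0.05 and 0.03 in Rb-null cells). The laminin-binding integrin subunit Itgb4 was higher without serum by 0.41 in Rb-null cells (adjusted p = 0.00575) and 0.31 in wild-type cells (adjusted p = 0.0138). Itga6, another integrin subunit among the sorting markers, went the other way. It was at -0.48 in Rb-null cells (adjusted p = 0.0651) and passed in wild-type cells at -0.49 (adjusted p = 0.0394). Ly6e was lower by -0.31 (adjusted p = 0.0106) and -0.24 (adjusted p = 0.0227), and Cd164 by -0.26 (adjusted p = 0.0445) and -0.23 (adjusted p = 0.0471). The differences between the lines in these responses did not pass the threshold for any gene of the related lists.

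Among the markers of cell types, Dsp, the desmosomal protein desmoplakin, averaged 2408 ± 253 and 1602 ± 46.7 in Rb-null cells without and with serum (SD, n = 2 each), against 1111 ± 1.60 (n = 2) and 642 ± 112 (n = 3) in wild-type cells. The level in Rb-null cells was 2.33-fold higher (log2 1.22, SE 0.098, adjusted p = 1.96e-05). A second Dsp probe set lay below the floor on every array (highest 21.8). Cldn3, a claudin of tight junctions, was at -0.22 by its brighter probe set (adjusted p = 0.00617). That call ended without between-array normalization (-0.049, adjusted p = 0.462). The other Cldn3 probe set averaged 741 and 1114 in Rb-null cells without and with serum, against 733 and 717 in wild-type cells. With serum its mean was thus higher in Rb-null cells, opposite in direction to the brighter probe set. Averaged over the media, 9 of the 11 epithelial markers did not pass. With serum 2 were higher in Rb-null cells, among them Krt8 (0.22), and 1 lower, Cldn4 (-0.49), against 23.6% of all probe sets called. Without serum 1 was higher and 3 lower, among them Krt18 (-0.26) and Krt7 (-0.21), against 30.7%. A second Krt19 probe set, which can detect related transcripts, averaged 1229 and 1078 in Rb-null cells without and with serum. In wild-type cells it averaged 736 and 704. Of 7 tested leukocyte markers 1 was lower, Cd3g at -0.15 (adjusted p = 0.0236). Among 7 tested fibroblast and mesenchymal markers 1 was lower in the same comparison, Col1a2 at -0.41 by its brighter probe set (adjusted p = 0.0280). The other Col1a2 probe set differed less. It averaged 333 and 327 in Rb-null cells without and with serum, against 363 and 346 in wild-type cells. Over all probe sets 23.4% were lower. The calls of Cd3g and Col1a2 ended when single arrays were left out, at adjusted p up to 0.0858 and 0.0884.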
